A study of Rattus norvegicus with 12 samples.

Results

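The genes described here are 10 markers of white blood cells and of myeloid cells that can enter injured brain tissue: Ptprc, Cd53, Cd48, Cd37, Coro1a, Plac8, Ccr1, Ccr2, Il7r and Aif1. They were chosen by name, and every probe set that the array annotation assigns to exactly 1 gene was taken for each of them, which gave 13 probe sets. They are 10 of the 14217 genes that the array reads in this way. The animals were Sprague-Dawley rats, all male and 8 weeks old, and mRNA of the left hemisphere of the brain was measured with 1 oligonucleotide array per rat. In 7 rats the middle cerebral artery was occluded and reopened (MCAO, a stroke model), and 5 rats had a sham operation (Sham). Brains of both groups were taken 24 h after reperfusion. The occluded side, the size of the lesions and any flushing of blood from the vessels are not stated in the labels. Litters and days of operation are not stated either.

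White blood cells carry surface and cytoskeletal proteins that neurons, astrocytes and oligodendrocytes mostly lack, so their transcripts serve as markers of these cells in brain tissue. Microglia, the resident macrophages of the brain, share many of these transcripts, among them Ptprc and Aif1. After an arterial occlusion, neutrophils and monocytes adhere to vessels and enter the tissue along chemokine gradients, while microglia change shape and multiply. In RNA from a whole hemisphere, more cells of a type and more RNA per cell cannot be told apart.

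The deposited values are signals on a log2 scale, with array medians between 7.23 and 7.28. Many probe sets held almost the same value on all arrays: 58.9% of the probe sets with 1 gene had an SD over the 12 arrays under 0.01. Such probe sets are called near-constant here, the others varying, and a near-constant value carries no information on a difference between groups. A gene entered the comparison if a probe set exceeded 6.61 (the 25th percentile of all values) on at least 5 arrays, and 12153 genes did, 6339 of them varying. All 10 neuron markers listed passed this filter. The log2 difference between the 3' and 5' beta-actin controls, a measure of RNA integrity, was 1.27 to 1.47 in MCAO and 1.40 to 1.46 in Sham. Control probe sets of the array of MCAO 6 stood 12 rows away from those of the other arrays and were set back for this measure. Its gene probe sets stood in the order of the other arrays.

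Promoter sequences are shown because several of the genes rose together. RefSeq promoters (rat build GRCr8, from 250 bases before to 50 bases after the annotated start) were at hand for 9 of the 10 genes, all but Aif1. The word AGGAAGT was searched on both strands. It holds the GGAA core bound by ETS-family factors, to which the myeloid and lymphoid regulator PU.1 belongs, and it was chosen with these sequences in view. A second word, GAGGAA, which can overlap it, was found in 5 of the 9 promoters and in 27.6% of all promoters. AGGAAGT occurred in 5 of the 9 promoters, those of Ptprc, Cd53, Cd48, Il7r and Cd37, and in 8.41% of all 33465 promoters of the same length. Ptprc, with 2 matches, lies at chr13:52259697-52259996 on the minus strand, Cd53 at chr2:197087847-197088146 on the minus strand, Cd48 at chr13:86717744-86718043 on the plus strand, and Il7r at chr2:60204868-60205167 on the minus strand. Each is written 5′ to 3′ along the gene, with the word or its reverse complement ACTTCCT in capitals.
Ptprc: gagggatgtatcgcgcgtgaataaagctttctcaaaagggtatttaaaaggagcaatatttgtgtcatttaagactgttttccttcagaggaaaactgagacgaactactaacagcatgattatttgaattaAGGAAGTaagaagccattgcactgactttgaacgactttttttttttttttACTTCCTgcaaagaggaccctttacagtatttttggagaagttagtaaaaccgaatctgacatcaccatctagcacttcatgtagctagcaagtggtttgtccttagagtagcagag
Cd53: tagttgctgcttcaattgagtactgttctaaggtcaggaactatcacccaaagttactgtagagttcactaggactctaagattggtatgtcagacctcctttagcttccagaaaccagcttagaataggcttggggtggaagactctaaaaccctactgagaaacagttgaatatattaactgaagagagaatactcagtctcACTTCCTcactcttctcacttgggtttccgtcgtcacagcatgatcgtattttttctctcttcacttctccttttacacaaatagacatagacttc
Cd48: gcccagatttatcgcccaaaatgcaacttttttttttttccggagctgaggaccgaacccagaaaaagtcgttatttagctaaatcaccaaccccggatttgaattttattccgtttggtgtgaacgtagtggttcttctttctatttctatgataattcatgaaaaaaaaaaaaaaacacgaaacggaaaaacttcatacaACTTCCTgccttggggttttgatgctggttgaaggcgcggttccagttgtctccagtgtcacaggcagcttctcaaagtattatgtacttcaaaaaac
Il7r: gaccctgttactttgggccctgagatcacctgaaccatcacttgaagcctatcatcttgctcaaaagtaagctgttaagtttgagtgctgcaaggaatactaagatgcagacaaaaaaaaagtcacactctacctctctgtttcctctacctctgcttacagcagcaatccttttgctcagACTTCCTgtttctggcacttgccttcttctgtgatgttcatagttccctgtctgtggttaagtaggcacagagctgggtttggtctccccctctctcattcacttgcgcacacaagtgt
Counted from the start site, the words began at positions -118 and -67 in Ptprc, at -46 in Cd53, at -48 in Cd48 and at -69 in Il7r. The promoter of Cd37 held the word at -79. A match is a description of the letters and does not show that a factor binds there. The promoters of Ccr1, Ccr2, Plac8 and Coro1a held no match in this window. As a pair without the word, Plac8 (chr14:9356700-9356999, plus strand), which had the largest change of the genes, and Coro1a (chr1:190731054-190731353, minus strand), which did not pass the test, read as follows.
Plac8: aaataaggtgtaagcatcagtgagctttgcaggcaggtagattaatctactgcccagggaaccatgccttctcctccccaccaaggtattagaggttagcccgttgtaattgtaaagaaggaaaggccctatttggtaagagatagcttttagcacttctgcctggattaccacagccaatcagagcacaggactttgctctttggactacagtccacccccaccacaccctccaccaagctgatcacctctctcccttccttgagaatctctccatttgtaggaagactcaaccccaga
Coro1a: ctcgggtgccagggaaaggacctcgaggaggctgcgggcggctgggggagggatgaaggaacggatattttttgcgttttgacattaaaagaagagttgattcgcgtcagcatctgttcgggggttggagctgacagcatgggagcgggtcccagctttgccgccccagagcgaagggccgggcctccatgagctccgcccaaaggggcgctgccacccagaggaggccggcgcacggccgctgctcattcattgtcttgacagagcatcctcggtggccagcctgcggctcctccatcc

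The series holds a single comparison, MCAO against Sham. Transcripts of general leukocyte surface proteins (Ptprc, Cd53 and Cd48), of myeloid cells (Plac8, Ccr1 and Aif1) and, with the least certainty, of the lymphocyte receptor gene Il7r were higher in MCAO, by 1.42-fold (Il7r) to 2.64-fold (Plac8). Coro1a, which encodes an actin-binding protein of leukocytes, did not pass the test, with a log2 change of -0.03 ± 0.07 (SE). Ccr2 and Cd37 were near-constant and under the filter, so the arrays say nothing of their change. Of the 10 genes, 8 passed the filter, all 8 with a varying probe set, and 7 of these were higher in MCAO (limma, Benjamini-Hochberg adjusted over all genes, threshold 0.05). Of the 5 Sham arrays, 0 exceeded the filter value for Ccr1, 2 for Il7r and 4 each for Ptprc and Plac8, so these genes passed with the help of MCAO arrays and the count supports nothing by itself. The same test called 35.2% of all varying genes higher, and 22.2% of all genes tested. It called 0 of the 8 lower (limma; 0 at an unadjusted p under 0.05), against 34.2% of varying and 22.1% of all tested genes. For 4 of the 8 genes the groups did not overlap, with every MCAO rat above every Sham rat. The same was true of 17.9% of varying genes. All 8 genes, on their chosen probe sets, had the larger SD in MCAO, by 1.08 times for Coro1a and by 1.63 (Aif1) to 4.77 times (Ccr1) for the others. Of all varying genes, 89.4% had their larger SD in MCAO.

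**Figure D1:**
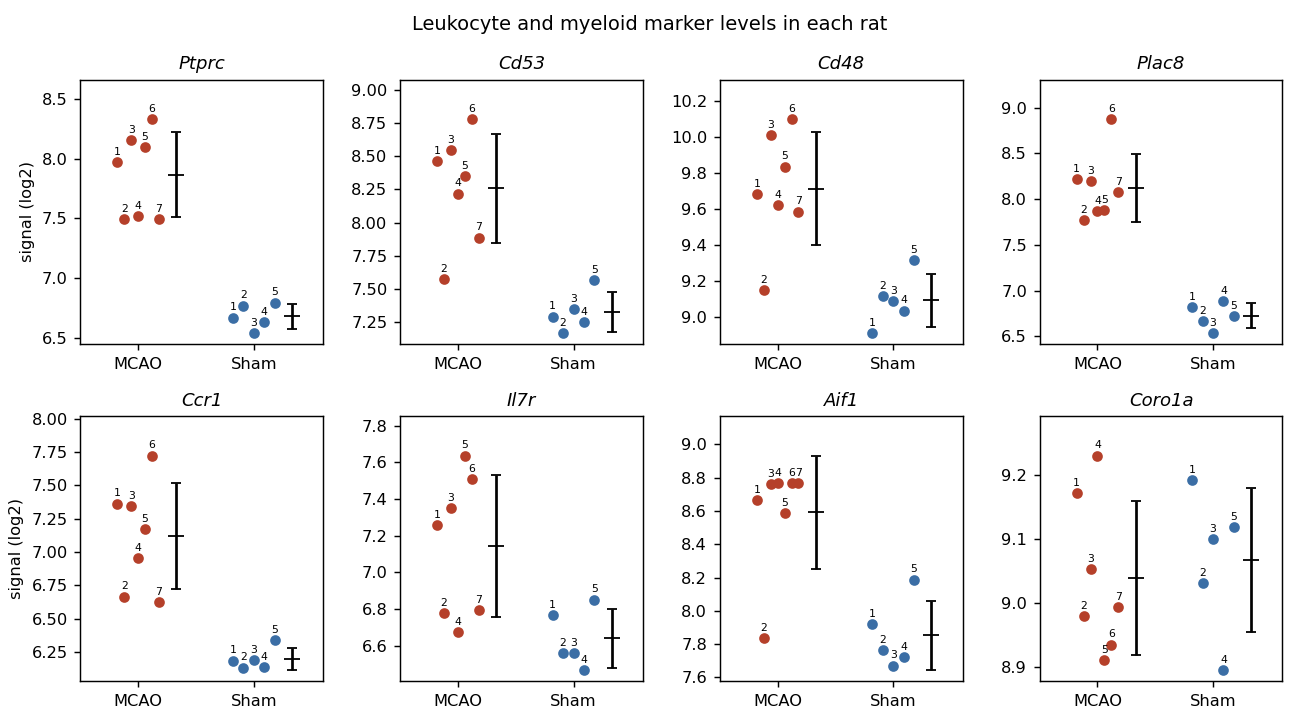
Log2 signal (vertical axes, a separate range for each gene) of the 8 varying genes in 7 MCAO rats (red, left) and 5 Sham rats (blue, right). Points are single rats with their replicate number, and bars show the mean and SD. Ptprc, Cd53, Plac8 and Ccr1 have no overlap between the groups, whereas MCAO 2 lies among the Sham rats for Cd48 and Aif1.

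Ptprc encodes CD45, the tyrosine phosphatase found on all nucleated blood cells. Its probe set 1390798_at had a lowest signal of 7.49, a median of 7.97 and a highest of 8.33 in MCAO, against 6.67, 6.77, 6.54, 6.63 and 6.80 in the 5 Sham rats. Every MCAO rat was above every Sham rat, with MCAO 6 highest and MCAO 2, 4 and 7 lowest. The means were 7.87 ± 0.36 in MCAO (SD, n = 7) and 6.68 ± 0.10 in Sham (SD, n = 5), a 2.27-fold difference (log2 change 1.19 ± 0.16, SE; limma adjusted p = 0.00106). A second Ptprc probe set, 1370603_a_at, ranged from 6.61 to 6.98 in MCAO and from 6.04 to 6.47 in Sham, again without overlap. Its change was smaller, 0.51 ± 0.08 (SE; limma adjusted p = 0.00236 over all probe sets). Within MCAO both probe sets ordered the rats alike (Pearson r = 0.94, exact permutation p = 0.00298; Spearman rho = 0.86, exact permutation p = 0.0238; n = 7). Without the 2 rats farthest from the median, MCAO 2 and MCAO 7, r was 0.94. Adjusted over this pair and the Il7r pair below, the p-values were 0.00595 and 0.0238.

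Cd53 encodes a tetraspanin, a membrane organizer restricted to leukocytes. Its signal had a lowest value of 7.57, a median of 8.35 and a highest of 8.78 in MCAO, against 7.29, 7.17, 7.35, 7.25 and 7.57 in Sham. The groups came close to each other, since MCAO 2 (7.574) was just above Sham 5 (7.570), while the other MCAO rats were at 7.89 or more. The change was 0.93 ± 0.19 (SE), or 1.91-fold (limma adjusted p = 0.0041). Cd37, which encodes a tetraspanin of B cells and other leukocytes, read 6.56 on every array of both groups.

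Cd48 encodes a GPI-anchored adhesion protein of the SLAM family, carried by most blood cells. In MCAO its signal had a lowest value of 9.15, a median of 9.68 and a highest of 10.10, against 8.91, 9.11, 9.08, 9.03 and 9.32 in Sham. Of the 7 MCAO rats, 6 were above every Sham rat, and MCAO 2 lay within the Sham range. The change was 0.62 ± 0.15 (SE), or 1.54-fold (limma adjusted p = 0.00834). Coro1a differed from these genes: its 1 probe set ranged from 8.91 to 9.23 in MCAO and from 8.90 to 9.19 in Sham, and the ranges overlapped almost fully (limma adjusted p = 0.783). Under alternatives in processing its change lay between -0.07 and 0.0033.

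Plac8 encodes a small cysteine-rich protein abundant in neutrophils, monocytes and other immune cells. Its signal had a lowest value of 7.77, a median of 8.07 and a highest of 8.88 in MCAO, against 6.82, 6.67, 6.53, 6.88 and 6.72 in Sham. The gap between the groups was wide: the lowest MCAO rat (MCAO 2) exceeded the highest Sham rat (Sham 4) by more than the whole spread of the Sham rats. Means were 8.13 ± 0.37 in MCAO (SD, n = 7) and 6.72 ± 0.14 in Sham (SD, n = 5), a 2.64-fold difference (log2 change 1.40 ± 0.17, SE; limma adjusted p = 0.00083). By size of rise Plac8 stood in place 99 of the 6339 varying genes and Ptprc in place 154.

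Ccr1 encodes a receptor for the chemokines CCL3 and CCL5 on neutrophils and monocytes. Its signal had a lowest value of 6.63, a median of 7.18 and a highest of 7.72 in MCAO, against 6.19, 6.13, 6.19, 6.14 and 6.34 in Sham. Every MCAO rat was above every Sham rat, with MCAO 6 highest and MCAO 2 and MCAO 7 lowest. The change was 0.92 ± 0.18 (SE), or 1.90-fold (limma adjusted p = 0.00341). No Sham array reached the filter value of 6.61 for Ccr1, so it entered the test through its MCAO arrays alone. Ccr2, which encodes the receptor for CCL2 on inflammatory monocytes, read 6.23 on all 12 arrays, below the filter and near-constant.

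Aif1 encodes IBA1, a calcium-binding protein of microglia and macrophages. On probe set 1368558_s_at its signal had a lowest value of 7.84, a median of 8.76 and a highest of 8.77 in MCAO, against 7.92, 7.77, 7.67, 7.72 and 8.19 in Sham. Of the MCAO rats, 6 lay close together at 8.59 to 8.77, above every Sham rat, and MCAO 2 (7.84) was below 2 of the 5 Sham rats. The change was 0.74 ± 0.17 (SE), or 1.67-fold (limma adjusted p = 0.00645), and it was 0.87 without MCAO 2 (limma adjusted p = 0.000331). The suffix _s_at marks probes that match more than 1 transcript. The other Aif1 probe set, 1369489_at, was near-constant at 7.11 on every array, so the result rests on 1 of 2 probe sets. Averaged over both, the change was 0.37 (limma adjusted p = 0.00634). Without _s_at probe sets only the near-constant one was left (-1.4e-05, limma adjusted p = 0.873), which carries no information on a change.

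Il7r encodes the interleukin-7 receptor alpha chain, which keeps T cells and their precursors alive and is also made by some myeloid cells. Probe set 1382566_at had a lowest signal of 6.67, a median of 7.26 and a highest of 7.64 in MCAO, against 6.77, 6.56, 6.56, 6.47 and 6.85 in Sham. In 4 MCAO rats (1, 3, 5 and 6) the signal was above every Sham rat, at 7.26 or more, and in the other 3 it lay within the Sham range, at 6.67 to 6.79. The second probe set, 1386052_at, split the same 4 rats (6.70 to 7.15) from the same 3 (6.12 to 6.23), with Sham at 5.97 to 6.24. Across the 7 MCAO rats the probe sets correlated at r = 0.92 (exact permutation p = 0.00913) and rho = 0.89 (exact permutation p = 0.0123), with r = 0.83 without MCAO 4 and MCAO 2. Adjusted over the pairs of Ptprc and Il7r, these p-values were 0.00913 and 0.0238.

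The group difference of Il7r was 0.50 ± 0.18 (SE) on the log2 scale, just past the threshold (limma adjusted p = 0.0463). In the fit over all 20826 probe sets without a filter, neither Il7r probe set passed (limma adjusted p = 0.0539 and 0.0743). Of the 13 probe sets of the 10 genes 10 varied, and that fit called 7 of these higher, beside 36.2% of all varying probe sets. Leaving out any of 9 single arrays (MCAO 1, 3, 5 or 6, or any Sham array) ended the Il7r call, with limma adjusted p between 0.0503 and 0.103, and leaving out MCAO 2, 4 or 7 did not. Equal array medians (limma adjusted p = 0.0548) and equal 75th percentiles (limma adjusted p = 0.0506) ended it too.

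**Figure D2:**
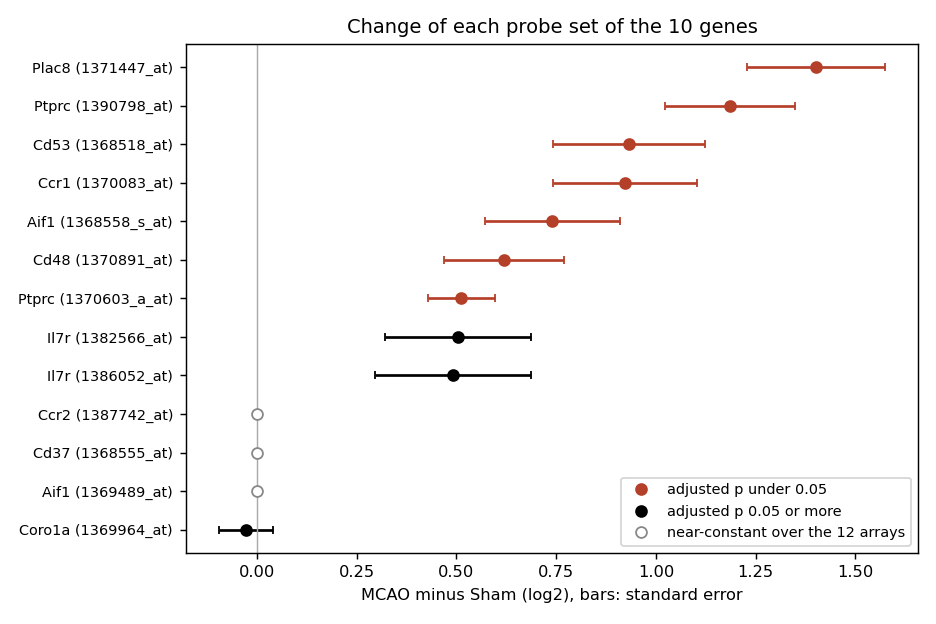
Log2 difference of MCAO minus Sham (horizontal axis) with its standard error for all 13 probe sets of the 10 genes, from the limma fit over all probe sets. Red points passed the threshold, black points did not, and open grey points are near-constant probe sets. The 7 red points lie between 0.51 and 1.40, both Il7r probe sets near 0.50, and Coro1a at -0.03.

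MCAO rats kept much of their order from gene to gene. MCAO 6 was highest for 5 of the 8 varying genes and among the top 3 for 7, and MCAO 3 was among the top 3 for 7. MCAO 2 was lowest for 4 and among the bottom 3 for all 8. Averaged over the 8 genes as z-scores within MCAO, MCAO 6 stood at 0.99, MCAO 3 at 0.54, MCAO 1 at 0.39, MCAO 5 at 0.12, MCAO 4 at -0.20, MCAO 7 at -0.56 and MCAO 2 at -1.28. Single genes followed this mean to different degrees over the 7 rats, from r = 0.995 for Cd53 and 0.95 for both Cd48 and Ccr1 to 0.73 for Aif1 and 0.01 for Coro1a. Each gene is part of the mean, so these values only describe the pattern. The place of MCAO 6 was not particular to the marker genes. Its mean difference from Sham was also the highest within MCAO for the endothelial (0.63) and tetraspanin genes (0.32) listed below. For neuron genes it was the lowest (-0.43), and for astrocyte and oligodendrocyte genes it was neither.

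The order of Aif1 was closer to that of some marker genes than of others. Over the 7 MCAO rats its r was 0.78 with Cd48 and 0.71 with Cd53. It was 0.48 with Ccr1, 0.47 with Plac8, 0.40 with Ptprc, 0.30 with Il7r and 0.27 with Coro1a. For Aif1, MCAO 4 and MCAO 7 (8.77 each) were level with MCAO 3 and MCAO 6 (8.76 and 8.77), yet they were in the lower part for Ptprc (7.52 and 7.49 in MCAO 4 and MCAO 7), Ccr1 (6.95 and 6.63) and Il7r (6.67 and 6.79). P2ry12, a purinergic receptor of resting microglia, was highest among MCAO in MCAO 4 (8.22) and MCAO 7 (7.95), against 7.14 to 7.45 in the other 5. MCAO 3 and MCAO 6, level with them for Aif1, read 7.45 and 7.14 for P2ry12. Whether changes differed between genes was tested on the within-array difference of each gene from Aif1, in which a shift common to an array cancels. Plac8 exceeded Aif1 in its change by 0.66 (exact permutation test over all splits of the 12 arrays into 7 and 5, two-sided, adjusted p = 0.0177 over 7 comparisons). The within-array difference was -0.47 ± 0.37 in MCAO (SD, n = 7) and -1.13 ± 0.23 in Sham (SD, n = 5). Coro1a fell short of Aif1 by 0.77 (difference of changes -0.77, exact permutation test, adjusted p = 0.0177). For Ptprc the difference of changes was 0.44, which failed the correction (exact permutation p = 0.0455, adjusted p = 0.106). Differences for Ccr1 (0.18), Cd53 (0.19), Cd48 (-0.12) and Il7r (-0.24) had adjusted p of 0.325 to 0.337 in the same exact permutation test. Leaving out Sham 1, 2 or 3 (adjusted p = 0.053 each) or Sham 5 (0.0848) ended the call for Plac8 in that exact test. The Ptprc difference passed without MCAO 4 (0.53, exact permutation adjusted p = 0.0404) or MCAO 7 (0.54, exact permutation adjusted p = 0.0303), and the Cd53 difference without MCAO 7 (0.28, exact permutation adjusted p = 0.0379). Probe sets respond to RNA with different slopes, so a difference of changes on this scale need not equal a difference in transcripts.

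**Figure D3:**
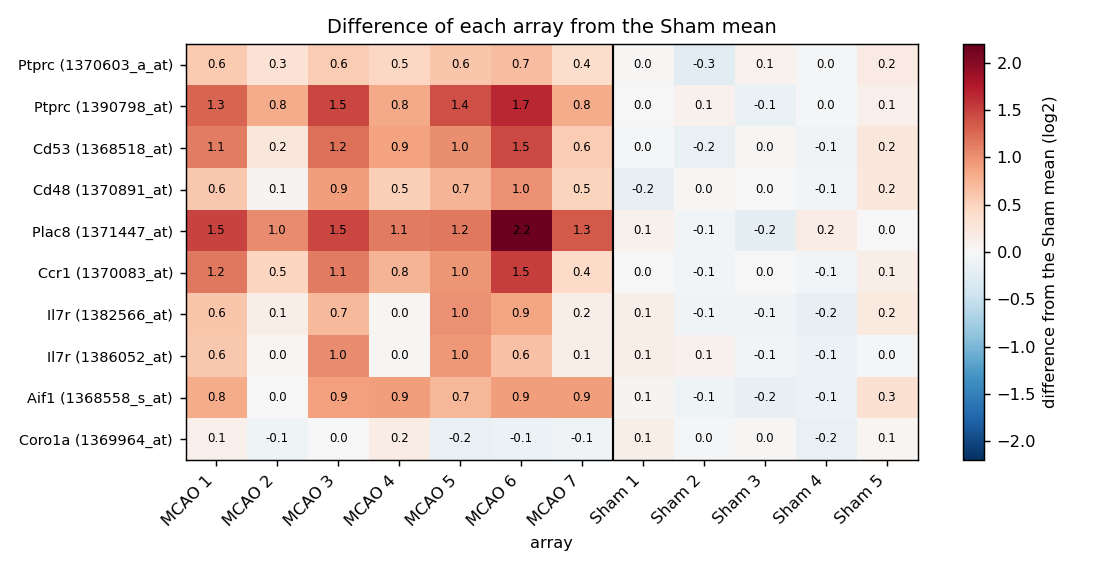
Difference of each array from the Sham mean (log2, color and printed to 1 decimal) for the 10 varying probe sets (rows), with the 7 MCAO arrays left of the black line and the 5 Sham arrays right of it. MCAO 6 and MCAO 3 are dark in most rows, MCAO 2 is pale for Cd53, Cd48, Il7r and Aif1, and the row of Coro1a is pale throughout.

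Among the Sham rats, Sham 5 was highest for 6 of the 8 genes. Its signal for the hemoglobin gene Hbb, a marker of red blood cells that shares sequence with other globin genes, was 12.51, against 11.51 to 12.14 in the other Sham rats. In MCAO, Hbb lay between 11.57 and 12.40, and its lowest value was that of MCAO 2. The platelet chemokine gene Pf4 likewise was lowest within MCAO in MCAO 2 (6.86, with the others at 7.22 to 7.82) and highest within Sham in Sham 5 (7.43, with the others at 6.81 to 7.07). Other rats did not follow the marker genes: MCAO 4 had the highest Hbb value within MCAO (12.40) and read 7.53 for Pf4. It was among the bottom 3 of MCAO for 6 of the 8 marker genes. Between the groups the red cell and platelet genes did not pass the test: Hbb had a log2 change of 0.20 ± 0.20 (SE; limma adjusted p = 0.461), Pf4 of 0.31 ± 0.16 (SE; limma adjusted p = 0.139) and Alas2, the heme synthesis gene of red cell precursors, of -0.00082 ± 0.15 (SE; limma adjusted p = 0.997). Another 4 genes of that list were near-constant. The part of blood left in the vessels in the leukocyte signals was not tested. Without Sham 5 the changes of Ptprc (1.21), Plac8 (1.40), Cd53 (0.99), Cd48 (0.68) and Aif1 (0.82) kept their calls, and without MCAO 2 they did too, at 1.25 for Ptprc, 1.46 for Plac8, 1.05 for Cd53, 0.71 for Cd48 and 0.87 for Aif1.

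Markers of the cells that could carry these transcripts were compared in the same fit. Their counts stand beside 35.2% of all varying genes called higher and 34.2% called lower. A listed gene is counted here only if its chosen probe set passed the filter and varied, so listed genes that are not on the array, dim or near-constant are left out. Of 20 further general leukocyte genes, 13 were on the array and 9 were counted, 8 of them higher in MCAO, with a median log2 change of 0.61 (0.03 over all varying genes). Laptm5, a lysosomal membrane protein gene of leukocytes, was not counted because its chosen probe set was near-constant, while its other probe set had a change of 0.54 (limma adjusted p = 0.00673 over all probe sets). The integrin beta-2 gene Itgb2, a subunit of the leukocyte adhesion receptors, had a change of 1.01 ± 0.11 (SE; limma adjusted p = 0.000383), and the actin bundler gene Lcp1 one of 1.24 ± 0.15 (SE; limma adjusted p = 0.00083). Of 18 neutrophil genes, 11 were on the array and 5 were counted, all 5 higher (median 1.01). A further one, the G-CSF receptor gene Csf3r, varied under the filter (0.41, limma adjusted p = 0.00977 over all probe sets). Lcn2, which reactive astrocytes also make, led them at 2.52 ± 0.23 (SE), followed by the calprotectin gene S100a9 at 1.65 ± 0.29 (SE). S100a9 was highest in MCAO 6 (9.11) and lowest in MCAO 2 (7.27), the same extremes as Plac8. Of 18 monocyte and macrophage genes, 16 were on the array and 12 were counted, 11 of them higher (median 0.90), among them the lipopolysaccharide co-receptor gene Cd14 (3.13 ± 0.29, SE) and the integrin gene Itgam (0.92 ± 0.10, SE). Cd163 (0.20) and Ccl24 (0.21) varied under the filter. Genes low in Sham can pass the filter through MCAO alone, so these counts support nothing by themselves.

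Of 14 resting microglia genes, 9 were on the array and 5 were counted, and the 2 that passed were lower in MCAO: P2ry12 (-1.26 ± 0.19, SE; limma adjusted p = 0.00146) and Tmem119 (-0.52 ± 0.09, SE; limma adjusted p = 0.00222). Their signals were lower in every MCAO rat than in any Sham rat. The share of all varying genes separated in this way was not counted. The counts in this paragraph stand beside 35.2% of all varying genes called higher and 34.2% called lower. Of 26 probe sets for T and NK cell genes, 23 were near-constant, and the 3 varying ones all belong to Bcl11b, a transcription factor that striatal and cortical neurons express as well. Its main probe set fell by 0.83 (SE 0.08; limma adjusted p = 0.000219), while the other 2 had changes of 0.02 and 0.04. Cd3e, a T cell receptor subunit gene, and Cd2, an adhesion gene of T and NK cells, were near-constant, so no informative list of lymphocyte markers stands beside the Il7r values. Of 9 probe sets for B cell genes 8 were near-constant, and the remaining gene Blnk, an adaptor of B cells and macrophages, was higher by 0.38 ± 0.06 (SE). Endothelial genes were higher for 5 of 7 counted (median 0.41), with the endoglin gene Eng at 0.64 ± 0.13 (SE) and the adhesion gene Esam at 0.59 ± 0.12 (SE). Of 8 astrocyte genes counted, 5 were lower and 1 higher, the filament gene Gfap (1.91 ± 0.12, SE), with Aldh1l1 lower at -0.78 ± 0.13 (SE). The water channel gene Aqp4 was not counted because its chosen probe set was near-constant, and its 2 varying probe sets disagreed, at 0.75 (limma adjusted p = 0.0151 over all probe sets) and -0.32 (limma adjusted p = 0.0562). Of 10 neuron genes 5 were lower (34.2% of all varying genes were), among them Stmn2 (-0.28 ± 0.04, SE) and Snap25 (-0.25 ± 0.05, SE). The second varying Stmn2 probe set had a change of 0.05 (limma adjusted p = 0.621 over all probe sets). Of 6 oligodendrocyte genes counted, 1 was lower, Cnp (-0.26 ± 0.09, SE), and Ugt8 did not pass at -0.26 ± 0.12 (SE). The part of shifts in these other cells in the leukocyte signals was not tested.

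**Figure D4:**
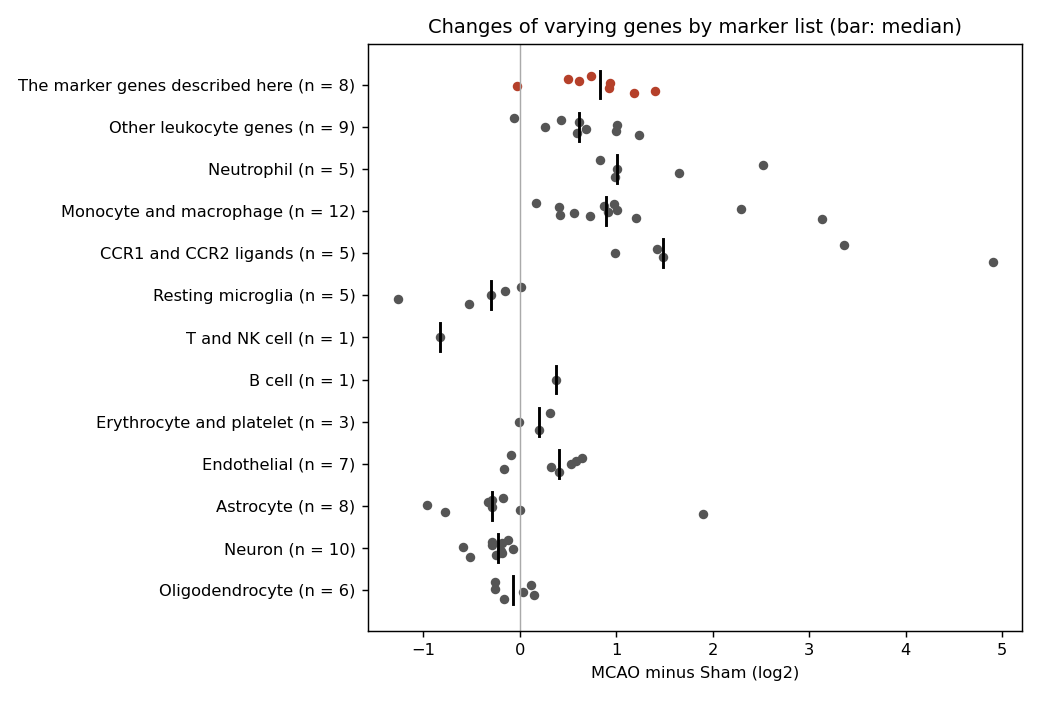
Log2 difference of MCAO minus Sham (horizontal axis) of varying genes in each marker list (rows), with 1 point per gene, a bar at the median and the number of varying genes in brackets. The genes described here (red) have a median of 0.83. Neutrophil and monocyte lists lie to the right of 0, and resting microglia, neuron and oligodendrocyte medians to the left.

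Partners of the receptors among the 10 genes were taken from whole lists. Counts for these lists stand beside the same 35.2% and 34.2% of varying genes called higher and lower. Here too, genes low in Sham can enter through MCAO arrays alone, so these counts support nothing by themselves. Of 8 ligands of CCR1 or CCR2, 7 were on the array and 5 passed the filter and varied, all 5 higher in MCAO (median 1.48). Ccl9 varied under the filter, at 0.13 (limma adjusted p = 0.0109 over all probe sets). Ccl2, the main CCR2 ligand, was higher by 4.90 ± 0.56 (SE; limma adjusted p = 0.000509) and Ccl3, a CCR1 ligand, by 1.48 ± 0.20 (SE; limma adjusted p = 0.000988). The rats lowest in Ccl2 were MCAO 4 (8.58) and MCAO 7 (10.19), whereas MCAO 2, lowest in 4 of the marker genes, read 11.03 and the Sham rats 6.05 to 6.18. Of 20 chemokine receptor genes, Ccr1 and Ccr2 included, 5 passed the filter and varied. Of these, 3 were higher and 1 was lower. Besides Ccr1, Cxcr4 (0.48 ± 0.18, SE; limma adjusted p = 0.0474) and the scavenging receptor gene Ackr3 (0.39 ± 0.09, SE) were higher. Over all probe sets that Cxcr4 probe set did not pass (limma adjusted p = 0.0552). Its other varying probe sets did, at 0.33 and 0.37 (limma adjusted p = 0.0328 and 0.0384). Ackr2, also a scavenging receptor gene, was lower (-0.54 ± 0.13, SE). For the interleukin-7 receptor, 2 of 8 listed genes passed the filter and varied, and both were higher. They were the shared gamma chain gene Il2rg (0.52 ± 0.11, SE; limma adjusted p = 0.00491) and the kinase gene Jak1 (0.28 ± 0.06, SE). Il2rg read 6.13 to 6.31 in the Sham rats, under the filter value on every Sham array, so it was counted through its MCAO arrays alone. Within MCAO, Il2rg was lowest in MCAO 4 (6.42), as was Il7r, and highest in MCAO 6 (7.14), whereas Il7r was highest in MCAO 5 on probe set 1382566_at and in MCAO 3 on 1386052_at.

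Counts for families of the structural members stand beside 35.2% of all varying genes higher and 34.2% lower. Of 22 tetraspanin genes other than Cd53 and Cd37, 15 varied, 7 higher and 4 lower (median 0.25). The lysosomal tetraspanin gene Cd63 (1.45 ± 0.14, SE; limma adjusted p = 0.000244) and the broadly expressed Cd9 (0.72 ± 0.08, SE) were higher, and Tspan13 was lower (-0.13 ± 0.02, SE). The 6 coronin genes besides Coro1a all varied, with 2 higher, among them Coro1b (0.34 ± 0.07, SE; limma adjusted p = 0.00519), and 2 lower, among them Coro7 (-0.43 ± 0.08, SE; limma adjusted p = 0.00324). Of 15 genes of actin branching and leukocyte actin control, 10 varied, with 9 higher and 1 lower (median 0.26). Arpc1b, a subunit of the Arp2/3 complex enriched in blood cells, was higher by 1.71 ± 0.19 (SE; limma adjusted p = 0.000434), and Actr2, another subunit gene, was lower by 0.06 (change -0.06 ± 0.02, SE). The other varying Actr2 probe set had a change of 0.05 (limma adjusted p = 0.372 over all probe sets). Among the SRC-family and related kinase genes that CD45 acts on or beside, 5 of 10 varied and 4 were higher. Fgr (0.67 ± 0.11, SE) and Lyn (0.54 ± 0.08, SE), both kinases of myeloid cells, were among these 4. Fgr had a Sham mean of 6.39, under the filter value, so it was counted with the help of MCAO arrays. Of 11 SLAM-family and associated genes listed, only 3 were on the array (Cd2, Slamf9 and Sh2d1a), and their 3 probe sets were near-constant. The rest of that list, Cd244 among them, was not on the array.

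Outside the marker genes, the 5 varying genes whose order over the 7 MCAO rats was most like the mean of the 8 markers were taken from 6331 genes. They were Clec4a3, a C-type lectin receptor gene of myeloid cells (r = 0.995), Rpl7a, a ribosomal protein gene (0.992), Tspo, a mitochondrial protein gene used as an imaging marker of neuroinflammation (0.990), Plek, a leukocyte and platelet protein gene (0.987), and Gng11, a G protein subunit gene (0.986). All share the same 7 arrays, and the values are a description. Their changes between the groups were 0.82 ± 0.13 for Clec4a3, 0.62 ± 0.10 for Rpl7a, 1.87 ± 0.17 for Tspo, 1.29 ± 0.12 for Plek and 0.58 ± 0.16 for Gng11 (SE), each higher in MCAO (limma adjusted p = 0.000219 to 0.0146).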

How the data were processed

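The authors deposited log2 signals for 31099 probe sets on 12 arrays. The log base was judged from the range, and no source used here gives the software, background correction or normalization. Labelling started from 100 ng of total RNA, per the labels. Array medians spanned little, so values were used as deposited. Of the probe sets, 57 were controls, 20826 had 1 gene, 436 several (none of them with a gene described here) and 9780 no gene in the platform annotation. Symbols were updated through Entrez Gene identifiers to RefSeq GRCr8.

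Of the probe sets of a gene that passed the filter, that with the highest mean was used. Testing was by limma 3.58.1 (R 4.3.3; lmFit and eBayes with trend, two-sided). A second fit took all probe sets with 1 gene, without a filter. The procedure was tested on simulated data. The number of arrays limits the precision. Members, lists and tests were chosen with earlier results of these data known. Named genes were the 10 markers, the 2 varying genes of each list with the strongest statistic plus the strongest of the minority direction, and the 5 genes most like the marker mean. Cd3e, Cd2, Alas2 and Cxcr4, and the values by rat of genes other than the markers, were picked after their values were seen. Alternatives were scaling, filters, choice of probe set, variance model, array weights, the replicate number as a block, and leaving out each array.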

Additional observations from a re-analysis of the deposited data

Results flagged for a closer look

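In 3 of the 20 sets of values examined (10 varying probe sets in each of 2 groups), 1 rat stood apart by a gap that was large against the range of its group. Chance flags about 1 in 20 such sets. For Plac8, MCAO 6 was highest at 8.88, a gap of 0.596 of the MCAO range, above Dixon's critical value. Without that array the change was 1.28 (limma adjusted p = 0.000232). For Aif1 on probe set 1368558_s_at, MCAO 2 was lowest at 7.84, a gap of 0.81 of the MCAO range, and the change without it was 0.87. For Ccr1, Sham 5 was highest at 6.34, a gap of 0.719 of the Sham range, and the change without it was 0.96 (limma adjusted p = 0.00715). The causes of these values were not tested.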

How the results depend on the processing

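Ptprc, Plac8 and Cd53 kept their direction and their call under all 26 alternatives, and Ccr1 under the 25 that measured it, with changes of 0.85 to 1.34, 1.26 to 1.46, 0.85 to 1.08 and 0.82 to 1.04. With the replicate number as block on the 10 arrays that share numbers, 4 of the marker genes were called higher, and 1596 genes higher and 1528 lower in all. On the same 10 arrays without the block, a fit added after seeing the data, 6 marker genes were higher, and 2063 genes higher and 2035 lower (7, 2698 and 2688 on all 12 arrays). Changes were equal in both 10-array fits. Cd48 (0.57) and Aif1 (0.67) had limma adjusted p = 0.0538 and 0.0627 with the block and 0.0252 and 0.0304 without it, Il7r (0.50) passed in neither (limma adjusted p = 0.0506 and 0.0748), and Coro1a was at 0.0019. The numbers are not known to pair the rats: deviations of same-numbered rats correlated at -0.33 to 0.54, and 2 of 5 Sham rats correlated best with their own number. Leaving out single arrays gave 6 to 7 marker genes called higher, 2145 to 3155 genes higher and 2110 to 2901 lower, and Coro1a changes of -0.071 to 0.0033 (above 0 without Sham 1). The difference of changes from Aif1 then ranged from 0.56 to 0.73 for Plac8, 0.38 to 0.54 for Ptprc and 0.13 to 0.28 for Cd53. Without _s_at and _x_at probe sets Aif1 was at -1.4e-05, on its near-constant probe set, which carries no information on a change. Without a filter Il7r had limma adjusted p = 0.0509. With the filter at the 50th percentile Ccr1 and Il7r were not measured. Depth does not apply to arrays, and the near-constant probe sets of Ccr2 and Cd37 give no bound on their change.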
